A study of Mus musculus with 36 samples.

Results

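The replication-dependent histone genes were followed in SLAM-seq libraries of mouse embryonic stem cells (mES cells). They were taken by symbol, as every row named Hist1 to Hist4 followed by h and the histone class, with at least 360 reads summed over the 36 libraries. This rule kept 62 of 22979 genes in the tables. Of 65 rows with such a symbol, Hist1h2bq, Hist1h2br and Hist2h2aa1 fell below the read minimum. The 62 genes comprised 6 of the linker histone H1, 15 of H2A, 16 of H2B, 12 of H3 and 13 of H4. By locus, 51 belong to the Hist1 cluster on chromosome 13, 8 to Hist2 on chromosome 3, 2 to Hist3 on chromosome 11 and 1 to Hist4 on chromosome 6. The symbol rule also takes in variants that are not typical of the family, namely the testis variants Hist1h2aa (TH2A), Hist1h2ba (TH2B) and Hist1h1t (H1t), and Hist2h2be (H2BE), known from olfactory neurons.

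All cells came from a female Cast x 129S background that carries an inducible Xist allele with Bgl stem loops, and each of the 3 lines is 1 clone. The degron tag sits on METTL3 (clone 12D), the m6A methyltransferase, on YTHDC1 (clone Y12H), a nuclear m6A reader, or on ZCCHC8 (clone Z12H), a subunit of the NEXT complex that hands nuclear RNA to the exosome. In the dTAG arm, dTAG-13 was added 2 h before doxycycline, and the Ctrl arm received none. Both arms were given doxycycline at 1 µg/ml for 20 h and then for a further 4 h with 500 µM 4-thiouridine (4sU). A chase in 50 mM uridine followed for 0, 90 or 180 min, with 2 replicates of each combination. Every library therefore comes from cells in which Xist was induced. The degron acts on protein, and protein loss cannot be read from RNA counts.

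Replication-dependent histone genes supply the histones that package newly copied DNA, and their mRNAs build up in S phase. These mRNAs usually end without a poly(A) tail, in a conserved stem-loop that is bound by SLBP and cut by a complex containing the U7 snRNP, and they decay quickly once DNA synthesis stops. A histone gene can also give longer, polyadenylated RNA when transcription passes the stem-loop. The libraries were made from total RNA depleted of rRNA, so RNA without a poly(A) tail is included.

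The stem-loop is shown first, because the response described below is read against the length of gene model annotated past it. It was searched in the GENCODE transcripts (GRCm38, mm10) by its consensus of 16 bases, a 6-base stem around a 4-base loop, on the transcribed strand. It was found in 43 of 62 histone genes (69.4%) and in 67 of 21901 protein-coding genes (0.306%). Several models without a match are short, for example 312 bases in Hist1h4k, 381 in Hist2h2bb and 393 in Hist1h2an. A model that ends before the stem-loop gives no match, so a missing match does not show that the gene lacks it. The core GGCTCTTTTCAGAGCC was the most frequent, in 23 of the histone genes, followed by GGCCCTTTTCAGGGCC in 7 and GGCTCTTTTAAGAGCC in 6. The 6 copies below belong to genes whose reads rose or fell in the ZCCHC8 line, the last being the neighbour of Hist2h2be, with the stem and loop in capitals, 5′ to 3′ on the gene's strand and as DNA.
Hist1h4i: taaaGGCCCTTTTTAGGGCCacca
Hist2h3c1: caaaGGCTCTTTTCAGAGCCacca
Hist1h2bp: caaaGGCTCTTTTCAGAGCCaccc
Hist1h3d: caaaGGCTCTTTTCAGAGCCaccc
Hist1h1e: caaaGGCTCTTTTCAGAGCCaccc
Hist2h2ac: aaaaGGCTCTTTTTAGAGCCacca
In Hist1h4i the capitals lie at chr13:22040966-22040981 on the minus strand. The gene model goes on for 330 bases to its annotated end. The distance from stem-loop to gene end is 1167 bases in Hist2h3c1 (chr3:96247327-96247342, plus strand), 1275 in Hist1h2bp (chr13:21787923-21787938, plus), 752 in Hist1h3d (chr13:23576244-23576259, plus), 1153 in Hist1h1e (chr13:23621782-23621797, minus) and 57 in Hist2h2ac (chr3:96220418-96220433, minus). In Hist1h2bp it is a genomic distance to the end of a second transcript, in which no stem-loop was found. The Hist1h2bp transcript with the stem-loop ends 38 bases past it. No stem-loop of this pattern was found in the single annotated transcript of Hist2h2be, which is 2620 bases long (chr3:96221119-96223738, plus) and carries a polyadenylation signal.

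Many H2A and H2B genes stand head to head and share the DNA between their starts, so 3 promoters are shown, with 3 motifs in capitals, read on either strand. These are the TATA box motif TATAAA, the promoter element CCAAT and the octamer ATTTGCAT. The RefSeq promoter table (GRCm38.p6) held 57 of the 62 genes, and the windows run over the 250 bases before the start, on the gene's strand.
Hist2h2ac: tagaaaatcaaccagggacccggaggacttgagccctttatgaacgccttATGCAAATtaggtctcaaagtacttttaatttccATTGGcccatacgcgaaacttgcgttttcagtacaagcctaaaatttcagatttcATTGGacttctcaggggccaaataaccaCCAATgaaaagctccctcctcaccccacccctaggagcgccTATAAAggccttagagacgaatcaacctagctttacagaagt
Hist1h2an: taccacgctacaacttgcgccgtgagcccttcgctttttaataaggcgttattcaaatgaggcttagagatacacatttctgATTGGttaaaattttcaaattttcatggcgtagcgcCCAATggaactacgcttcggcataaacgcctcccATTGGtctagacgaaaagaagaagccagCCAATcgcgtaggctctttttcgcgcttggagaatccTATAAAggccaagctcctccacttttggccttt
Hist1h4i: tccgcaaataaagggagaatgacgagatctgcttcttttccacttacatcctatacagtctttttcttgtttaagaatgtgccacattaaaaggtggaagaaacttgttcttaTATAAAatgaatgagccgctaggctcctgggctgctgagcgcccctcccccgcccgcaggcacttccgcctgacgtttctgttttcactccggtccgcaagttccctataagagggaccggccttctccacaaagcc
The Hist2h2ac window (chr3:96220881-96221130, minus) contains the start of Hist2h2be, and holds 1 TATAAA, 3 CCAAT and 1 octamer. The Hist1h2an window (chr13:21787249-21787498, minus) contains the start of Hist1h2bp, and holds 1 TATAAA and 4 CCAAT. The Hist1h4i window (chr13:22041363-22041612, minus) holds 1 TATAAA and no CCAAT. Over windows of 300 bases, which add the 50 bases after the start, CCAAT was found in 84.2% of the histone promoters and in 37.9% of all 27025 promoters. TATAAA was found in 59.6% against 14.2%, and the octamer in 22.8% against 1.75%. The octamer was confined to 7 of 15 H2A and 6 of 14 H2B promoters in these windows, and CCAAT was in every H1, H2A, H2B and H3 promoter of the table but in 3 of 12 H4 promoters. A match is a description of the letters, not evidence of a factor bound there.

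Depth was 5274684 to 18652000 reads per library, lowest in the ZCCHC8 line (5274684 to 10257631). The 62 genes took 0.223% to 0.778% of the reads. Libraries stood apart within 2 lines. In the METTL3 line the summed level of the 62 genes in Ctrl was 3070.8 CPM (reads scaled to a common library total) on average in replicate 1 and 4608.7 in replicate 2, and in dTAG 2595.2 and 5256.7. In the YTHDC1 line, Ctrl replicate 1 was at 7783.3 CPM at 0 min, 3453.9 at 90 min and 3385 at 180 min, so the 0 min library was the highest of all 36 while the later samples were low. The median log2 difference of replicate 1 minus replicate 2 over histone genes with at least 20 reads was −0.95 in METTL3, −0.35 in YTHDC1 and −0.16 in ZCCHC8, against −0.08, −0.09 and −0.03 over all genes. In METTL3 it was −1.44 for H3 and −1.47 for H4 but −0.59 for H1 and −0.55 for H2B. Histone genes under 800 bases (−0.95) and longer ones (−0.93) differed alike. Histone genes thus differed between the METTL3 replicates by far more than the median gene, and the SE of a histone gene is larger there, 0.25 for Hist1h4i against 0.0543 in ZCCHC8. Of the embryonic stem cell markers, all 8 were measured, at a summed 2389 to 3438 CPM, and the 8 fibroblast markers of possible feeder cells summed to 25.7 to 63.1 CPM, with none of the 4 tested passing between arms in any line. Where lists below move with a histone result, their part in it was not tested.

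**Figure D1:**
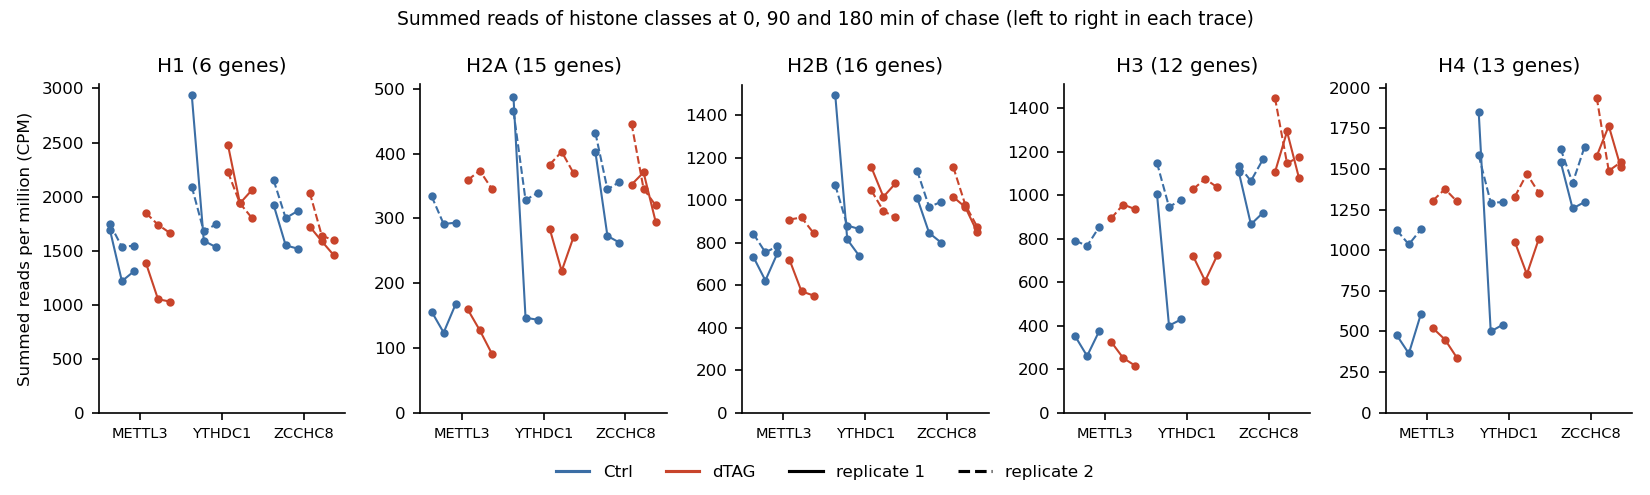
Summed CPM of the genes of each histone class (vertical axis) in every library, by line, with the 0, 90 and 180 min libraries from left to right in each trace, arm by colour and replicate by line style. In the METTL3 line the H4 sum of Ctrl averaged 482.86 in replicate 1 and 1095.6 in replicate 2, while in the ZCCHC8 line the replicates lie close together (1366.3 and 1558.8).

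Per kilobase of annotated length, Hist1h1a, a linker histone, had the most reads of the 62 genes. It was at 871 CPM per kb averaged over the 36 libraries. Hist2h2bb followed at 719 CPM per kb, and then Hist1h1b at 359, Hist1h4f at 332 and Hist1h4m at 297 CPM per kb. In Ctrl libraries of the ZCCHC8 line Hist1h1a was at 908 ± 89.1 and Hist2h2bb at 644 ± 79.3 CPM per kb (SD, n = 6), and those of Hist1h4f (394 ± 56.3), Hist1h4m (376 ± 61.9) and Hist1h1b (361 ± 50.5) lay within their spread. Hist1h4i was at 111 and Hist2h2be at 1.6 CPM per kb over all libraries, the latter being the lowest of the 62 genes. Only uniquely placed reads were kept, while the length counted is that of the whole model, 7425 bases in Hist1h1d. All 81-base stretches of Hist1h1a, Hist2h2bb and Hist1h1b (100%) occur in no transcript of a gene elsewhere. Genes that overlap the histone gene were left out of this count, here and below. For Hist2h2bb this leaves out Gm42743, annotated over it on the same strand, so its reads are not shown to be its own. The share was 76.8% in Hist1h4f, 11.2% in Hist1h4m and 6.65% in Hist1h3h. The order is therefore one of assigned reads, and near-identical copies may stand too low in it.

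The first question was which histone RNAs change in amount when each protein is lost. In the ZCCHC8 line 17 of 62 histone genes rose and 10 fell in dTAG (edgeR quasi-likelihood test, adjusted p below 0.05). The test set 6 against 6 libraries, which come from 2 replicates, without a replicate term. Of all 13962 genes tested in that line, 20.1% rose and 19.5% fell. The share of histone genes that rose was 27.4% and the share that fell 16.1%, so the number called was close to that of other genes, and the median log2 change of the 62 genes, 0.03, was close to that of all genes, −0.0035. The ranges of the 6 dTAG and 6 Ctrl libraries did not overlap for 9 genes, with dTAG higher in each (6.15% of all genes), and for none with dTAG lower (2.83%). In bulk samples fewer cells in S phase and less histone RNA per cell cannot be told apart.

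Hist2h2be changed most. It encodes an H2B variant and lies in the Hist2 cluster. It ran at 0.395, 0.974 and 1.54 CPM (lowest, median and highest) in the 6 Ctrl libraries of the ZCCHC8 line and at 14.3, 19.3 and 21.7 CPM in the dTAG libraries. Every dTAG library was above every Ctrl library. The log2 change was 4.19 (SE 0.162, edgeR adjusted p 4.14e-16), 18.3-fold. The Ctrl values rest on 3 to 13 reads per library and the dTAG values on 96 to 204, so the fold is uncertain at its Ctrl end. In the same 12 libraries its head-to-head neighbour Hist2h2ac, an H2A gene whose start is 239 bases away, was at 21.8, 33.8 and 54.4 CPM in Ctrl and 20.8, 25.3 and 40.2 in dTAG. It fell by 0.34 on the log2 scale (SE 0.105, adjusted p 0.0154), in 5 of 6 pairs, with ranges that overlapped.

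Hist1h4i, an H4 gene of the Hist1 cluster (chr13:22040636-22041362, minus), was at 68.4, 72.3 and 80.9 CPM in Ctrl and at 173, 193 and 232 CPM in dTAG. The groups did not overlap, and the log2 change was 1.41 (SE 0.0543, adjusted p 4.14e-16). Its mean went from 73.4 ± 4.4 to 195 ± 21.9 CPM (SD, n = 6). The other H4 genes that rose were Hist1h4j, by 0.58 (16.3 ± 2.57 to 24.4 ± 4.15 CPM, adjusted p 8.87e-05), and Hist2h4, by 0.52 (85 ± 12.7 to 122 ± 14.1 CPM, adjusted p 0.00119). The 3 H4 genes with the most reads did not pass. Hist1h4d was at 298, 343 and 376 CPM in Ctrl and 299, 331 and 377 in dTAG, a log2 difference of −0.01 (adjusted p 0.872), and Hist1h4f and Hist1h4m were at 0.02 (0.886) and 0.06 (0.699). No H4 gene of the 13 fell.

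Of the 12 H3 genes 5 rose and none fell, with a median log2 difference of 0.19. Hist2h3c1 was at 3.4, 6.66 and 7.22 CPM in Ctrl and 17.3, 18.5 and 21.4 in dTAG. It rose by 1.72 (SE 0.119, adjusted p 2.82e-11), with no overlap between arms. Hist1h3d was at 92, 116 and 125 CPM in Ctrl and 171, 189 and 224 in dTAG, and rose by 0.78 (SE 0.0707, adjusted p 5.61e-08). Hist2h3c2 rose by 0.88 (4.1 to 8.11 CPM at the median, adjusted p 3.01e-05), Hist1h3h by 0.40 (adjusted p 0.00397) and Hist1h3i by 0.35 (adjusted p 0.00655). These last 3 are near-identical copies of other H3 genes. Of their 81-base stretches 37.7%, 6.65% and 23.9% occur nowhere else among annotated transcripts, so the assignment of reads to them is uncertain. The H3 genes with the most reads, Hist1h3e (0.20, adjusted p 0.11), Hist1h3b (−0.04, 0.689) and Hist1h3f (0.18, 0.184), did not pass.

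Of 15 H2A genes 5 rose and 3 fell, and of 16 H2B genes 4 rose and 4 fell. The H2A and H2B pair Hist1h2an and Hist1h2bp, whose starts are 243 bases apart, rose together. Hist1h2bp was at 14.9, 17.3 and 24.8 CPM in Ctrl and 30.4, 44.9 and 50.9 in dTAG (log2 1.20, SE 0.0869, adjusted p 5.85e-11), and Hist1h2an was at 2.47, 3.09 and 3.58 in Ctrl and 6.55, 7.63 and 9.53 in dTAG (log2 1.40, SE 0.153, adjusted p 8.23e-08). Neither pair of groups overlapped, but 15.7% of the 81-base stretches of Hist1h2an are its own. Hist1h2ac (0.48), Hist1h2ae (0.45), Hist1h2ai (0.44) and Hist1h2ad (0.37) were the other H2A genes that rose, and Hist1h2bg (0.29) and Hist1h2be (0.23) the other H2B genes. In Hist1h2ai 10.9% of the 81-base stretches are its own, and in Hist1h2ad 35%. The abundant H2A genes Hist1h2ab (−0.05, adjusted p 0.759) and Hist1h2ak (0.13, 0.475) and the H2B gene Hist1h2bb (0.03, 0.696) did not pass.

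The falls were smaller than the largest rises. Hist1h2aa, the testis H2A, was at 4.7, 8.7 and 11.6 CPM in Ctrl and 4.01, 5.05 and 8.13 in dTAG. It fell by 0.56 on the log2 scale (SE 0.14, adjusted p 0.00255) and was lower in 6 of 6 pairs, while the ranges overlapped. Its head-to-head neighbour Hist1h2ba, the testis H2B, was at 3.03, 4.36 and 6.14 CPM in Ctrl and 1.37, 2.83 and 5.21 in dTAG, and fell by 0.55 (SE 0.182, adjusted p 0.0174). Of the 6 linker histone genes 3 fell and none rose. Hist1h1e was at 189, 238 and 293 CPM in Ctrl and 146, 161 and 215 in dTAG, and fell by 0.47 (SE 0.0663, adjusted p 1.19e-05) in 6 of 6 pairs. Hist1h1b fell by 0.31 (adjusted p 2.8e-05), also in 6 of 6 pairs, and Hist1h1t by 0.36 (adjusted p 0.0369), whereas Hist1h1a, the most abundant, was at −0.07 (adjusted p 0.206), Hist1h1d at −0.05 (0.657) and Hist1h1c at 0.20 (0.115). Hist1h2bh (−0.40), Hist3h2a (−0.27), Hist1h2bf (−0.18) and Hist2h2bb (−0.16, adjusted p 0.0485) also passed. Hist1h1e overlaps Hist1h2be on the same strand, both overlap Gm11398, and Hist3h2a overlaps Trim17. Same-strand overlaps were also annotated for Hist2h3c1 with Gm20634, for Hist2h2bb with Gm42743 and for Hist1h2ac with Gm24991. Reads in the shared parts cannot be told apart.

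**Figure D2:**
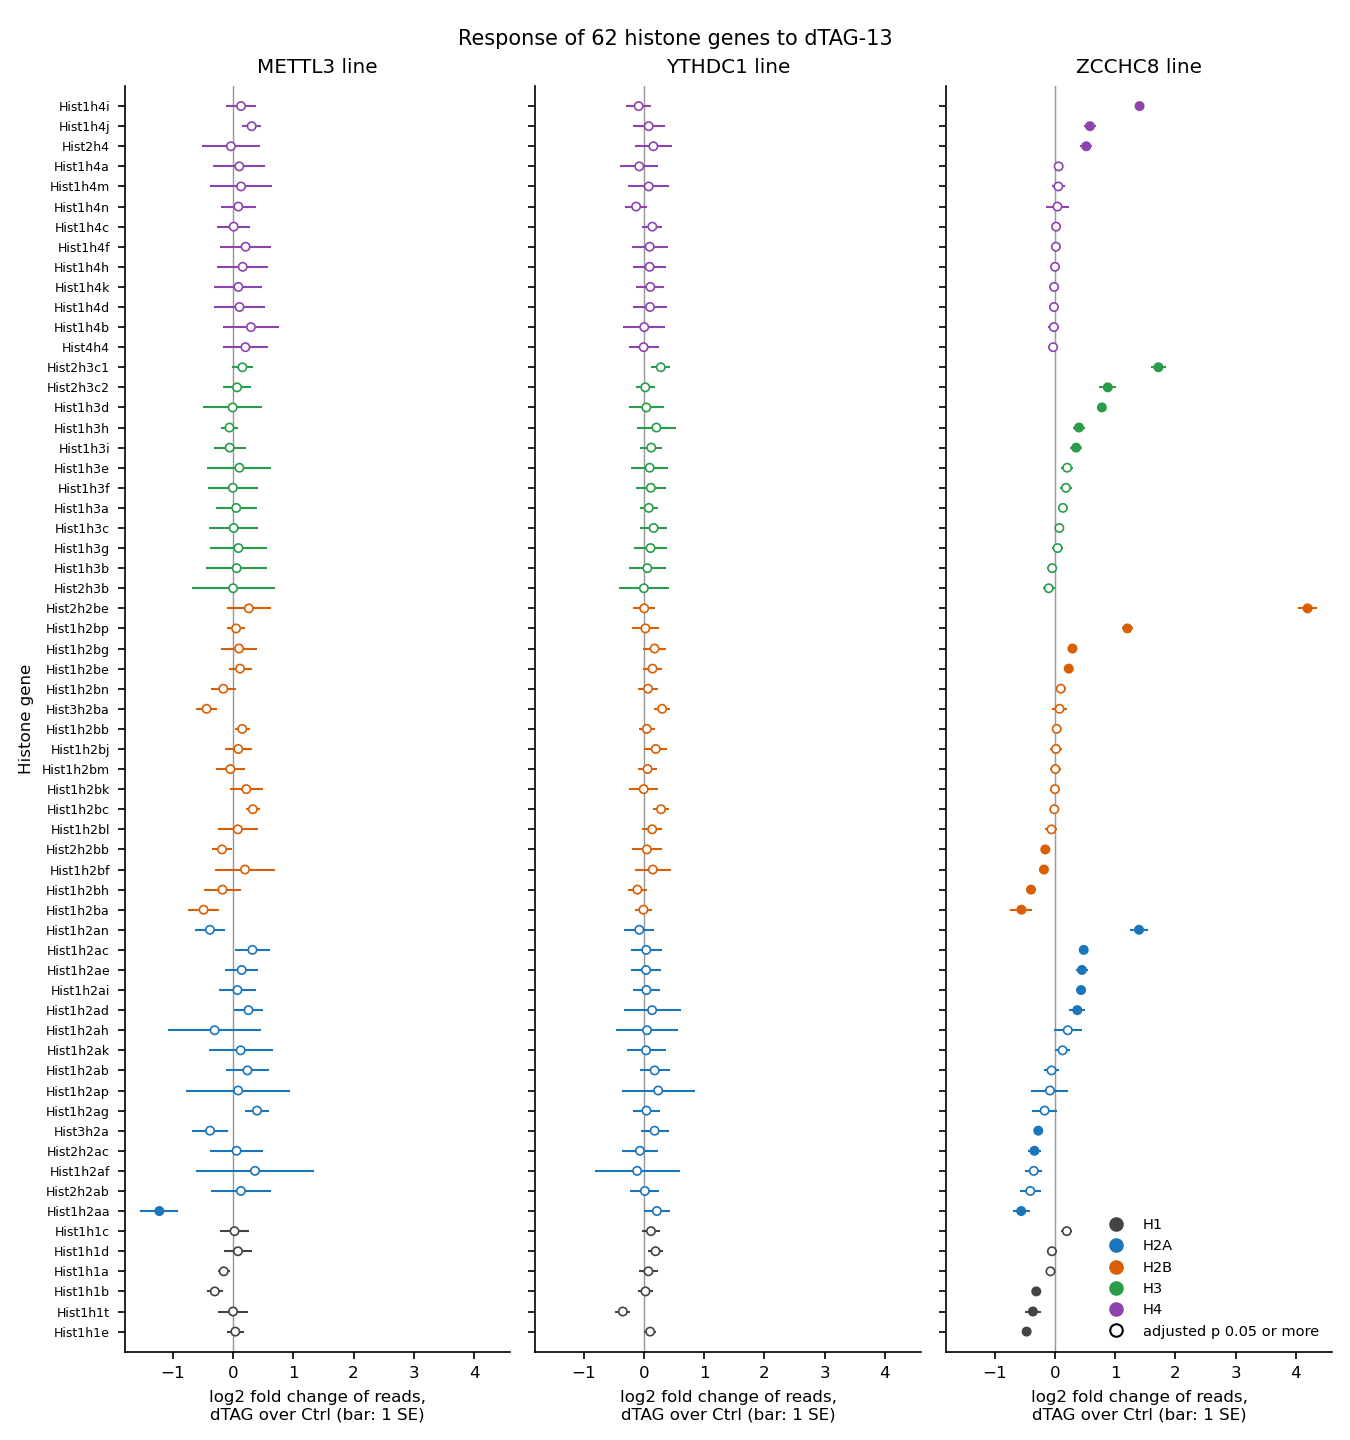
Log2 change of reads, dTAG over Ctrl, with 1 SE (horizontal axis) for each of the 62 histone genes (vertical axis, coloured by class) in the METTL3, YTHDC1 and ZCCHC8 lines, with filled points for adjusted p below 0.05. Filled points number 1, 0 and 27 from left to right, and Hist2h2be at 4.19 in ZCCHC8 lies farthest from 0.

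Summed over genes, the arms lay close together. All 62 genes together were at 5611.5 ± 693.4 CPM in Ctrl and 5845.8 ± 636.5 in dTAG of the ZCCHC8 line (SD, n = 6). H1 was at 1801.5 ± 239 and 1672.6 ± 198 CPM, H2A at 345.18 ± 67.83 and 355.09 ± 51.97, H2B at 959.67 ± 121.9 and 973.37 ± 110.3, H3 at 1042.6 ± 122 and 1207.5 ± 139, and H4 at 1462.6 ± 165.1 and 1637.2 ± 178.1. The H3 and H4 differences were about as large as the SD between libraries, and the others were smaller. Within pairs of chase time and replicate, the H3 sum was higher in dTAG in 6 of 6, by 0.1 to 426.6 CPM, H4 and H2B in 5, H2A in 4 and H1 in 1. Hist2h2be, at 18.4 ± 3.25 CPM in dTAG, is a small part of the H2B sum. By locus, 13 of 51 Hist1 genes rose and 7 fell, 4 of 8 Hist2 genes rose (Hist2h2be, Hist2h3c1, Hist2h3c2 and Hist2h4) and 2 fell (Hist2h2ac and Hist2h2bb), and of the pair in Hist3 Hist3h2a fell and Hist3h2ba did not pass (0.08, adjusted p 0.657).

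The response was set beside the length of the gene model past the stem-loop. Of the 24 genes with at least 100 bases between stem-loop and annotated end, 11 rose and 4 fell in the ZCCHC8 line, with a median log2 difference of 0.20. Of the 19 with a shorter stretch, 1 rose (Hist1h2ad, a call lost under 5 alternatives) and 2 fell, with a median of 0.01. Of the 19 genes in which no stem-loop was found, 5 rose and 4 fell (median −0.01). Their models may end before a stem-loop, so they are not known to lack it. The split was 11 and 1 rising with a limit of 50 bases (27 and 16 genes) and 9 and 3 with a limit of 300 bases (19 and 24 genes). Hist1h2bp, which rose, counts as 1275 bases by the end of its second transcript. Its transcript with the stem-loop ends 38 bases past it, below each of these limits. In the METTL3 and YTHDC1 lines no histone gene rose at all, so rises cannot be compared by length there. The median log2 differences of the 3 sets, in the same order, were 0.07, 0.13 and −0.06 in METTL3. In YTHDC1 they were 0.10, 0.08 and 0.05. The counts and medians by length describe annotated models, not the ends of the RNA in these cells. The deposited tables hold 1 value per gene, so where in a gene the additional reads lie is not known. The length limits were chosen with the changes in view.

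**Figure D3:**
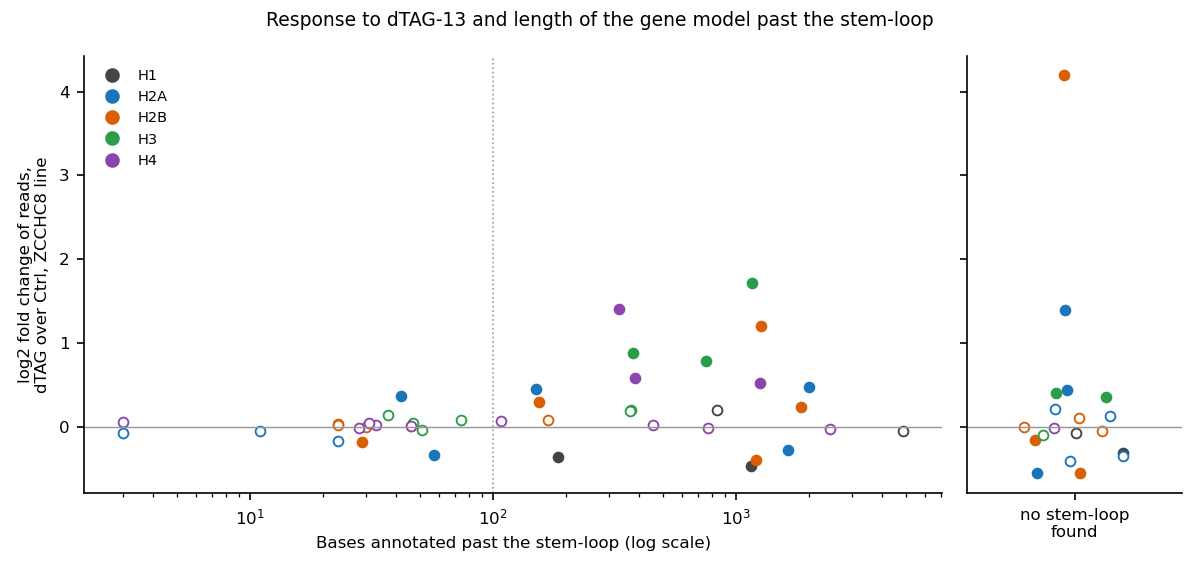
Log2 change of reads in the ZCCHC8 line, dTAG over Ctrl (vertical axis), against the number of bases from stem-loop to annotated gene end (horizontal axis, log scale, dotted line at 100), by class. The 19 genes in which no stem-loop was found are at the right. To the right of the dotted line lie Hist2h3c1, Hist1h4i and Hist1h2bp, with changes of 1.72, 1.41 and 1.20. Hist1h2bp is placed by the end of its second transcript, and its transcript with the stem-loop ends 38 bases past it.

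Head-to-head neighbours moved together in some pairs and apart in others. Of the 10 H2A and H2B pairs with starts under 500 bases apart, both members rose in 2 (Hist1h2ae with Hist1h2bg, and Hist1h2an with Hist1h2bp), both fell in 1 (Hist1h2aa with Hist1h2ba), and the members went opposite ways in 2 (Hist1h2ad up with Hist1h2bf down, and Hist2h2be up with Hist2h2ac down). The rise of Hist1h2ad rests on 4.61 to 9.77 CPM and missed the threshold under 5 alternatives (adjusted p 0.0771 to 0.214), and the fall of Hist2h2ac missed it under 2. In 2 pairs 1 member passed (Hist1h2ac and Hist1h2ai, both rising), and in 3 pairs neither did.

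In the METTL3 line none of the 62 histone genes rose and 1 fell, against 11.3% and 8.8% of 14413 genes tested. The gene that fell was Hist1h2aa, at 5.13, 9.07 and 18 CPM in Ctrl and 1.16, 3.7 and 9.01 in dTAG, lower in 6 of 6 pairs with overlapping ranges. Its log2 change was −1.22 (SE 0.316, adjusted p 0.0193), and it missed the threshold without the 0 min libraries (adjusted p 0.113) and with the chase libraries summed (adjusted p 0.591). With the replicate number as a block, 2 rose and 5 fell (24.4% and 24.1% of all genes). Without replicate 1, in which histone levels were low, 36 rose and 3 fell of 62 (25.6% and 26.7% of all genes), and without replicate 2 none rose and 13 fell of 60 tested (21.8% and 18.3%). The direction of the METTL3 response thus differed between the replicates. Hist1h4i was at 29.6, 45.3 and 54.9 CPM in Ctrl and 26.1, 48.1 and 66.5 in dTAG (log2 0.13, SE 0.25, adjusted p 0.766). Hist2h2be was at 0.363, 1.21 and 1.57 CPM in Ctrl and 0.579, 1.43 and 1.93 in dTAG (log2 0.26, SE 0.368, adjusted p 0.674). Neither showed separate groups.

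In the YTHDC1 line none of the 62 genes passed, against 2.48% rising and 2.77% falling of 14199 genes (edgeR), 2 had an unadjusted p below 0.05, and DESeq2 called 0. The block gave none rising and 1 falling (13.2% and 14.1% of all genes), and without replicate 1, 4 rose and 2 fell (11.5% and 13.5%). Hist1h4i was at 36.3, 66.7 and 105 CPM in Ctrl and 45.9, 62.4 and 65.2 in dTAG (log2 −0.09, SE 0.202, adjusted p 0.899). Hist2h2be was at 1.21, 1.56 and 2.21 CPM in Ctrl and 1.19, 1.66 and 1.95 in dTAG (log2 0.01, SE 0.179, adjusted p 0.999). The arms overlapped in both genes. No histone gene had separate ranges in the METTL3 line (5.48% of all genes with dTAG above and 2.46% below) or in the YTHDC1 line (1.25% and 0.958%).

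**Figure D4:**
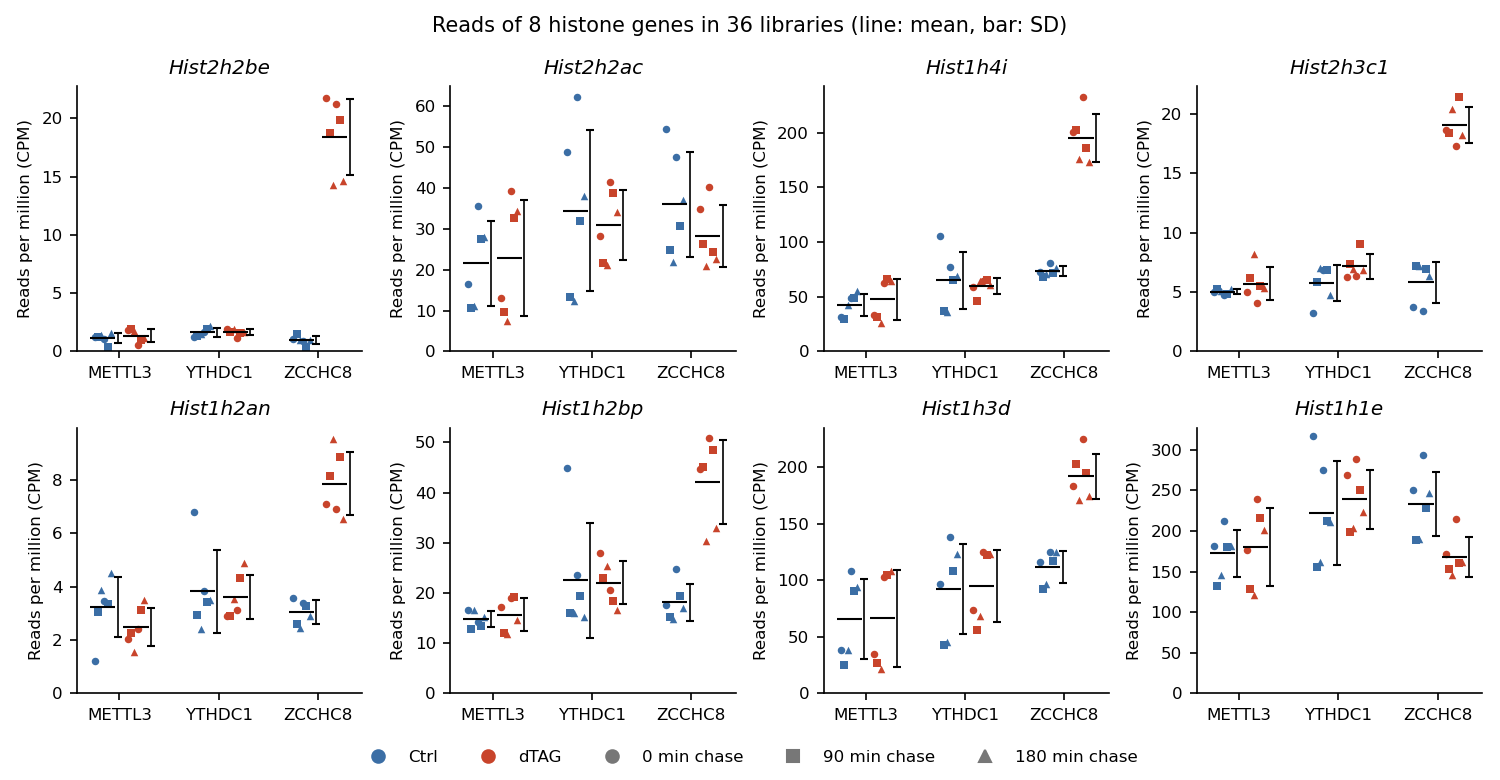
CPM of 8 histone genes (vertical axis, each panel starting at 0) in all 36 libraries by line, arm and chase time, with a line for the mean and a bar for the SD of the 6 libraries of an arm. In the ZCCHC8 panel columns Hist1h4i lies at 68.4 to 80.9 CPM in Ctrl and 173 to 232 CPM in dTAG, while in the other lines its arms overlap.

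The difference between lines was tested directly, as the interaction of line and arm over the 36 libraries and 15101 genes. Relative to METTL3, the ZCCHC8 response was higher for 6 histone genes and lower for 1, against 11.1% and 12.6% of all genes. Relative to YTHDC1 it was also higher for 6 and lower for 1, against 7.19% and 7.2%. Hist2h2be differed by 3.90 (SE 0.391, edgeR adjusted p 2.26e-08) from METTL3 and by 4.13 (SE 0.373, adjusted p 8.47e-09) from YTHDC1. For Hist2h3c1 the differences were 1.56 (adjusted p 7.83e-06) and 1.41 (5.5e-05), and for Hist1h4i 1.24 (SE 0.284, adjusted p 0.00173) and 1.44 (SE 0.284, adjusted p 0.000707). Hist1h2an, Hist1h2bp and Hist2h3c2 were the other genes that responded more in ZCCHC8 in both comparisons, and Hist1h1e the gene that responded in the lower direction (−0.54, adjusted p 0.0145, and −0.63, 0.00814). The METTL3 response was lower than that of YTHDC1 for 2 genes and higher for none (10.3% of all genes in each direction), namely Hist1h2aa (−1.45, SE 0.344, adjusted p 0.00282) and the H2B gene Hist3h2ba (−0.76, SE 0.207, adjusted p 0.00871). Hist3h2ba itself did not pass in METTL3 (−0.44, adjusted p 0.11) or in YTHDC1 (0.30, adjusted p 0.249). With the replicate block the calls were 9 higher and 2 lower for ZCCHC8 minus METTL3 (21.2% and 22.4% of all genes), 7 and 6 for ZCCHC8 minus YTHDC1 (13.7% and 18.6%) and none and 7 for METTL3 minus YTHDC1 (19.5% and 23.3%).

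Among all genes tested, 20.1% rose and 19.5% fell in ZCCHC8, 11.3% and 8.8% in METTL3, and 2.48% and 2.77% in YTHDC1. The counts of the lists below stand beside these shares and were not tested against them. Genes that act on histone RNA were read from a fixed list of 20, of which 19 were tested. In ZCCHC8 2 rose, Srrt (ARS2, a cap-binding partner, 0.33, adjusted p 1.84e-06) and Upf1 (a helicase used in histone mRNA decay, 0.12, 0.0336). In that line 6 fell, namely Lsm11 (U7 snRNP, −0.32, 0.00223), Zfp473 (ZFP100, U7 snRNP, −0.26, 0.000807), Sympk (symplekin of the cleavage complex, −0.22, 0.00059), Npat (the activator of histone transcription, −0.16, 0.02), Casp8ap2 (FLASH, −0.16, 0.0263) and Cpsf3 (the cleavage enzyme CPSF73, −0.15, 0.0108). The changes of these processing genes were all under 0.4 in size. In METTL3 3 rose, Lsm10 (U7 snRNP, 1.55, 7.81e-05), Coil (coilin, 0.59, 0.0026) and Zfp473 (0.35, 0.0224), and Ncbp1 (the large cap-binding subunit) fell by 0.54 (0.0016). In YTHDC1 Zfp473 fell by 0.40 (0.0134). Of 11 replication-independent histone genes 4 rose in ZCCHC8 (H1f0, H1fx, H2afj and H3f3b) and 2 fell (H2afy and H2afy2), in METTL3 1 rose and 1 fell, and in YTHDC1 1 fell. Of 24 S-phase genes 2 rose and 4 fell in ZCCHC8 (median 0.03), 2 and 2 in METTL3, and none passed in YTHDC1. Of 15 G2 and M phase genes 1 rose and 5 fell in ZCCHC8, 2 fell in METTL3 and none passed in YTHDC1, and of 12 histone chaperones 1 fell in ZCCHC8 and in YTHDC1, while in METTL3 2 rose and 1 fell. Among the stem cell markers 3 of 8 rose in ZCCHC8 and none passed in the other lines.

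Over the 180 min after the pulse, the share of histone genes whose reads fell was above that of all genes in the ZCCHC8 line, and close to it in METTL3 and YTHDC1. In ZCCHC8 41 of 62 genes fell and none rose with chase time, against 29.2% and 29.9% of 13757 genes tested, with a median slope of −0.11 per h on the log2 scale (all genes −0.0039). All 6 H1 genes fell, and 9 of 15 H2A, 15 of 16 H2B, 5 of 12 H3 and 6 of 13 H4. Hist1h2af (−0.32 per h, adjusted p 0.000113), Hist1h2ba (−0.32, 0.000969) and Hist1h2ap (−0.32, 0.0341) had the steepest slopes. Hist1h2ap rests on 5 to 21 reads per library here. Of the 81-base stretches 7.46% are its own in Hist1h2ap and 32% in Hist1h2af, so the assignment of their reads is uncertain. Hist2h2be fell by 0.19 per h (adjusted p 0.00451) and Hist1h4i by 0.09 per h (adjusted p 0.00102). In YTHDC1 16 fell and none rose (20% and 22.5% of 14007 genes), 22 with the replicate block (32.5% of all genes) and 8 without the Ctrl 0 min library of replicate 1 that stood apart. Hist1h2ba (−0.48, 4.85e-05), Hist1h1t (−0.39, 0.000224) and Hist1h2aa (−0.39, 0.00265) were steepest there. In METTL3 3 fell and none rose (6.17% and 11.7% of 14185 genes), namely Hist1h2aa (−0.42, 0.0307), Hist1h1t (−0.31, 0.0482) and Hist3h2ba (−0.24, 0.0436), and 14 fell with the block (23.5% of all genes). Slopes were below 0 for 60 of 62 genes in YTHDC1 and in ZCCHC8 and for 45 in METTL3. Other lists moved over the chase as well. In ZCCHC8 9 of 11 replication-independent histone genes, 15 of 24 S-phase genes, 9 of 15 G2 and M phase genes, 7 of 12 chaperones and 2 of the 4 feeder markers tested (Fbn1 and Thy1) fell, while 5 S-phase genes, 1 G2 and M phase gene and 3 chaperones rose. In YTHDC1 12 S-phase genes, 4 replication-independent histone genes, 5 chaperones and 2 G2 and M phase genes fell and 4 S-phase genes, 2 chaperones and 2 G2 and M phase genes rose. In METTL3 2 S-phase genes rose, and 2 replication-independent histone genes, 2 chaperones, 1 G2 and M phase gene and the feeder marker Thy1 fell. Their part in the histone slopes was not tested.

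Without dTAG-13, the ZCCHC8 line held more histone RNA than the METTL3 line. Of the 62 genes 28 were higher and 1, Hist1h2ba (−1.07, adjusted p 0.00274), was lower in ZCCHC8 Ctrl libraries, against 13% and 17.7% of 14265 genes, with a median log2 difference of 0.59. The 28 comprised 9 of 13 H4, 6 of 12 H3, 8 of 16 H2B, 3 of 15 H2A and 2 of 6 H1 genes. Without replicate 1, in which histone levels were low in METTL3, 48 were higher and 2 lower (17.9% and 19.6% of all genes), and without replicate 2, 28 and 2 (23.2% each). METTL3 and YTHDC1 differed in 2 genes, both lower in METTL3 (0.897% of all genes, with 1.54% higher), Hist1h3i (−0.61, adjusted p 0.0415) and Hist1h2bm (−0.53, 0.039). With the block these were 25 genes, all lower in METTL3 (7.91% of all genes, with 6.38% higher). ZCCHC8 and YTHDC1 differed in 1 gene each way (4.98% higher and 8.6% lower), with Hist1h1t higher (0.48, 0.013) and Hist1h2ba lower (−0.72, 0.034) in ZCCHC8, and with the block in 8 and 6 (21.4% and 25.5%). Each line is 1 clone, and clone, culture and library batch cannot be told apart in these comparisons.

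The label marks RNA made during the 4 h pulse. GRAND-SLAM estimates what part of a gene's reads is new as the new-to-total ratio, here the maximum of its posterior. Genes were read where no library of the 12 in a line held fewer than 100 reads or a ratio under 0.02, which left 39 histone genes in METTL3, 48 in YTHDC1 and 43 in ZCCHC8. At 0 min the median ratio of these genes in the Ctrl libraries was 0.7099 and 0.8509 in METTL3, 0.7864 and 0.834 in YTHDC1 and 0.8595 and 0.8429 in ZCCHC8 (replicates 1 and 2). The median over all genes was 0.5958 and 0.6027, 0.5577 and 0.5936, and 0.4957 and 0.541. Most histone RNA present at the end of the pulse was therefore assigned to the pulse, in all 6 libraries more than at the median gene. By the mean of the 2 replicates the H4 gene Hist1h4m was highest in every line, at 0.8755 and 0.9793 in METTL3, 0.9356 and 0.9904 in YTHDC1 and 0.9953 and 0.974 in ZCCHC8. Next by this mean came Hist1h2bb (0.8371 and 0.8879) in METTL3, and Hist2h4 in YTHDC1 (0.8872 and 0.9275) and in ZCCHC8 (0.9365 and 0.9185). In single libraries the order changed, with Hist1h2bm highest in METTL3 replicate 2, at 1, and at 0.6821 in replicate 1. Among the lowest were the H4 genes Hist1h4k (0.5444 and 0.7405) and Hist1h4d (0.5912 and 0.7232) in METTL3, Hist1h2ai (0.6077 and 0.7303) and Hist1h4d (0.7012 and 0.7464) in YTHDC1, and Hist1h2af (0.6385 and 0.7267) and Hist1h4k (0.6786 and 0.7194) in ZCCHC8. The share of 81-base stretches of its own was 11.2% in Hist1h4m, 10.9% in Hist1h2ai, 32% in Hist1h2af and 32.8% in Hist1h4k. The assignment of reads to these genes is therefore uncertain.

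In the ZCCHC8 line the ratio at 0 min was lower in dTAG for all 43 histone genes read, with a median log2 difference of −0.12 (all genes −0.04). Of these 1 passed the test (limma over 7251 genes, 0.0276% lower and 0.0414% higher of all genes), and 9 had an unadjusted p below 0.05. The gene was Hist1h3d. Its ratio was 0.812 and 0.811 in the Ctrl libraries at 0 min and 0.4802 and 0.4754 in the dTAG libraries, a log2 difference of −0.76 (SE 0.0929, limma adjusted p 0.000762). At 90 min it was 0.6609 and 0.6514 in Ctrl and 0.4493 and 0.4499 in dTAG, and at 180 min 0.4208 and 0.4111 in Ctrl and 0.3432 and 0.3822 in dTAG. The arms were separate at each time and came closer over the chase. Hist1h4i was at 0.8721 and 0.8375 in Ctrl and 0.6262 and 0.5947 in dTAG at 0 min (log2 −0.49, SE 0.1, adjusted p 0.0787), and at 180 min at 0.4165 and 0.3534 in Ctrl and 0.4344 and 0.4416 in dTAG. It did not pass, although its 2 dTAG values at 0 min lay below both Ctrl values.

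Genes whose reads rose in ZCCHC8 had the larger differences in ratio. For the 8 risen genes with enough reads the median log2 difference at 0 min was −0.45 (range −0.76 to −0.06), for the 7 fallen genes −0.08 (−0.18 to −0.01) and for the 28 others −0.12 (−0.42 to −0.01). Of these 8, 6 had an unadjusted p below 0.05, of the 7 none and of the 28, 3. The reads enter both measures, so these medians are given as a description. Hist2h2be had too few reads for the test. In its dTAG libraries at 0 min, with 171 and 135 reads, the ratio was 0.3557 (5% to 95% quantiles of the posterior 0.2943 to 0.4237) and 0.3873 (0.3197 to 0.4613). In its Ctrl libraries, with 6 and 7 reads, it was 1 (0.5208 to 0.9833) and 0.9249 (0.4878 to 0.9748). In YTHDC1 the ratio was below Ctrl for 46 of 48 histone genes (median −0.09) and none passed (0.0113% of 8820 genes in each direction), and in METTL3 for 30 of 39 (median −0.07, all genes −0.10) and none passed (9.76% of 8289 genes lower and 0.314% higher). In these 2 lines 0 histone genes had an unadjusted p below 0.05 by limma.

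Histone genes lost label faster than the typical gene in every line. Of the ratio at 0 min, 42.1% to 61.0% was left at 180 min at the median histone gene and 74.3% to 118.5% at the median gene of the line, over 12 series of line, arm and replicate. The histone median was lower in 12 of 12, and each of 520 single values was below its series' median over all genes. The T-to-C rate, conversions divided by T coverage, gave 30.6% to 49.2% against 55.3% to 83.0%, again in 12 of 12 series and in 513 of 520 values. The slope of log2 ratio in Ctrl had a median of −0.30 per h in METTL3, −0.41 in YTHDC1 and −0.32 in ZCCHC8, against −0.08, −0.11 and 0.04 over all genes. These slopes take 3.33, 2.42 and 3.08 h to bring the share down to 50%, and this is a fall of the new share, which new unlabelled transcripts also lower, and no half-life of the RNA. Hist1h3h was fastest in METTL3 (−0.52) and YTHDC1 (−0.62) and Hist1h3g in ZCCHC8 (−0.46). Only 6.65% of the 81-base stretches of Hist1h3h are its own. Hist1h4d was slowest in METTL3 (−0.16) and ZCCHC8 (−0.15) and Hist2h2bb in YTHDC1 (−0.25). By class, H3 kept less of its label than H4 in 12 of 12 series by both measures and less than H2B in 12 (ratio) and 11 (rate), and H2A kept less than H4 in 12 and 9. The series of a line share a culture and the genes of a class share sequence, so these counts carry no test.

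**Figure D5:**
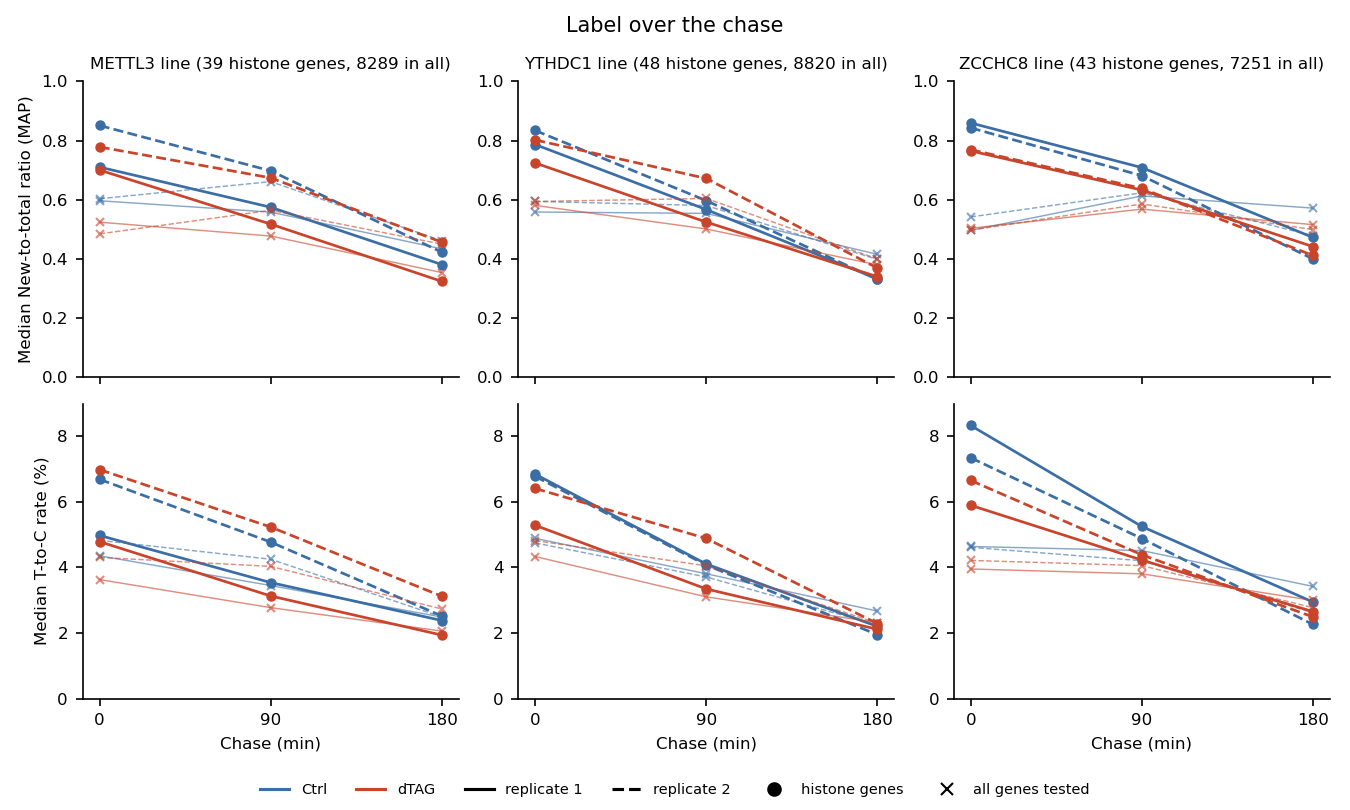
Median new-to-total ratio (upper row, share of reads) and median T-to-C rate (lower row, %) over 0, 90 and 180 min of chase by line, for histone genes (circles) and for all genes read (crosses), by arm and replicate. Histone genes start above all genes at 0 min and fall more steeply in each line, for example from 0.7099 to 0.3796 in METTL3 Ctrl replicate 1, where all genes go from 0.5958 to 0.4327.

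Whether depletion changed the loss of label was tested as the difference in slope between arms. None of 39, 48 and 43 histone genes passed (limma), and 0, 1 and 5 had an unadjusted p below 0.05 in METTL3, YTHDC1 and ZCCHC8. Among all genes 0.471% had a shallower slope in dTAG in METTL3 and 0% a steeper one, and 0% passed in either direction in the other lines. The differences of dTAG minus Ctrl ranged from −0.11 to 0.17 per h in METTL3 (SE 0.075 to 0.16), from −0.06 to 0.18 in YTHDC1 (SE 0.0568 to 0.14) and from −0.03 to 0.23 in ZCCHC8 (SE 0.0495 to 0.1). In ZCCHC8 the largest was that of Hist1h4i, with slopes of −0.39 per h in Ctrl and −0.16 in dTAG (difference 0.23, SE 0.0587, unadjusted p 0.000978 and adjusted p 0.909 by limma). Hist1h3d followed, with −0.32 and −0.13 (difference 0.19, SE 0.056, adjusted p 1). An adjusted p this high does not show that the slopes were equal.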

How the data were processed

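Total RNA of 36 libraries in 18 groups of 2 was sequenced after rRNA depletion (TruSeq stranded total RNA kit) and 4sU conversion. The authors discarded rRNA reads, aligned the rest to mm10 with STAR 2.5.2b (per the labels and the study's methods, keeping uniquely placed reads aligned over their whole length; a cap on mismatches can remove strongly labelled reads, and its effect was not tested), and ran GRAND-SLAM on each line and replicate, giving 6 tables. The GRAND-SLAM version and the use of strand in counting are not given in the sources used here. Without strand, most H2A genes cannot be told apart from the miRNA annotated opposite them. The same holds for antisense genes opposite Hist2h2bb and Hist2h3b (Gm20628), Hist2h2ab (Gm15444) and Hist1h4b (4930558J22Rik). The deposited count columns hold raw reads per gene. The deposited new-to-total ratio is a fraction, the share of reads assigned to new RNA, with its posterior mean and quantiles. The deposited conversion and coverage values are sums over reads. In all 252 columns were used, and 180 further columns of these libraries were not used here.

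Counts were tested with edgeR 4.0.16 (R 4.3.3; filterByExpr, TMM, robust quasi-likelihood, chase time as a factor, or as hours for slopes), and log2 ratios with limma 3.58.1. P-values were adjusted over all genes tested by Benjamini-Hochberg (threshold 0.05). SEs of log2 changes of counts were formed from the F statistic (absolute change over the root of F). Every gene was fitted, and the rows of the 62 histone genes were read out. The fits of counts and ratios were tested on simulated data, though not for every pair of lines. A simulated log2 change of 1 between arms was recovered in 58.2% of changed genes in METTL3. In YTHDC1 it was recovered in 82.1% and in ZCCHC8 in 93.9%. The simulated libraries were drawn independently, with no difference shared by the libraries of a replicate. Recovery under the shared replicate differences of these data was therefore not measured. DESeq2 1.42.0, Python 3.11.15, numpy 2.4.6, pandas 2.3.3 and matplotlib 3.10.9 were also used. Groups and replicate numbers came from the labels. Per the study's reporting summary, the wells of 1 biological replicate came from 1 batch of cells, and replicate differences of the 6 pairs of a line correlated at 0.645 to 0.945 (METTL3), 0.652 to 0.868 (YTHDC1) and 0.126 to 0.361 (ZCCHC8), so the numbers pair the samples. P-values measure the spread between these samples. The main fits held no replicate term and so left this pairing out, and the replicate block is given as an alternative. The 6 libraries of an arm come from 2 replicates, so they are not 6 independent cultures. Replicates of a group differed by more than counting noise (chi-square per degree of freedom 2.34 to 72.6), so none was merged.

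Named were the 2 markers Hist1h4i and Hist2h2be, the 3 members of each class with the most reads, the 3 largest rises and falls per line, the 2 smallest p-values per pair of lines and the 2 highest and lowest ratios at 0 min per line. Other genes were named after their values were seen. The genes, the lists and the stem-loop limit of 100 bases were chosen with earlier results of these data known. Alternatives were size factors, no low-count filter, the replicate block, DESeq2, summed chase libraries, leaving out each replicate, the posterior mean, the T-to-C rate and at least 50 reads. Leaving out the 0 min libraries or the YTHDC1 Ctrl 0 min library of replicate 1 was added after seeing the data.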

Additional observations from a re-analysis of the deposited data

Results flagged for a closer look

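In 16 comparisons the response of a histone gene to dTAG-13 differed between lines, by a test of the interaction itself (edgeR, adjusted p below 0.05, values as differences of log2 changes). Of all 15101 genes, 11.1% were higher and 12.6% lower for ZCCHC8 minus METTL3. The shares were 7.19% and 7.2% for ZCCHC8 minus YTHDC1, and 10.3% each way for METTL3 minus YTHDC1. ZCCHC8 minus METTL3 gave 3.90 for Hist2h2be, 1.74 for Hist1h2an, 1.56 for Hist2h3c1, 1.24 for Hist1h4i, 1.12 for Hist1h2bp, 0.77 for Hist2h3c2 and −0.54 for Hist1h1e. ZCCHC8 minus YTHDC1 gave 4.13 for Hist2h2be, 1.44 for Hist1h4i, 1.41 for Hist2h3c1, 1.40 for Hist1h2an, 1.12 for Hist1h2bp, 0.79 for Hist2h3c2 and −0.63 for Hist1h1e. The 2 sets share the ZCCHC8 libraries. METTL3 minus YTHDC1 gave −1.45 for Hist1h2aa and −0.76 for Hist3h2ba. Of these, 5 missed the threshold under an alternative: without replicate 1 Hist3h2ba (−0.34), and without replicate 2 Hist1h1e against METTL3 (−0.28), Hist2h3c2 against METTL3 (0.74) and against YTHDC1 (0.61, and 0.78 without the YTHDC1 Ctrl 0 min library of replicate 1), and Hist1h4i against YTHDC1 (1.39).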

How the results depend on the processing

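The 62 genes could be called least firmly in the METTL3 line, where the replicates differed most in histone level, and low read numbers limit Hist2h2be, Hist1h2an and the testis variants. Of 105 alternative counts 75 were within 1.5 times the main count, and of 347 alternative values of named genes 304 kept direction and call, 31 lost the call (among them those of Hist1h2ad and Hist1h1t in ZCCHC8 under 5 settings each), 2 gained it and 10 changed sign, all 10 in genes that did not pass. These were, in METTL3, Hist1h4i without replicate 2 (−0.15, and 0.32 without replicate 1) and Hist2h2be without replicate 1 (−0.22, and 0.54 without replicate 2), and, in YTHDC1, Hist1h4i without 0 min libraries (0.17), without the Ctrl 0 min library of replicate 1 (0.054) and without replicate 2 (0.04, and −0.17 without replicate 1), and Hist2h2be with chase libraries summed (−0.0054), with no low-count filter (−0.0004), without 0 min libraries (−0.044), without the Ctrl 0 min library of replicate 1 (−0.0375) and without replicate 1 (−0.40, and 0.39 without replicate 2).

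With the replicate block, since the numbers pair the samples, the genes called were 7 in METTL3 and 1 in YTHDC1 for dTAG against Ctrl, 7 for METTL3 minus YTHDC1, 11 for ZCCHC8 minus METTL3 and 13 for ZCCHC8 minus YTHDC1 in the response, 14 in METTL3 over the chase, and 25 for METTL3 minus YTHDC1 and 14 for ZCCHC8 minus YTHDC1 in Ctrl libraries, and no other count moved by over 1.5 times. Other settings gave 2 in METTL3 with DESeq2 and 0 with summed chase libraries or without 0 min libraries. Over the chase they gave 1 in METTL3 without the low-count filter and 8 in YTHDC1 without the Ctrl 0 min library of replicate 1, which left 1 for METTL3 minus YTHDC1 in Ctrl libraries and gave 3 for METTL3 minus YTHDC1 in the response. Leaving out each replicate gave 13 to 39 in METTL3, 0 to 6 in YTHDC1 and 22 to 33 in ZCCHC8 for dTAG against Ctrl, 8 to 18, 11 to 30 and 5 to 21 for the response of METTL3 minus YTHDC1, ZCCHC8 minus METTL3 and ZCCHC8 minus YTHDC1, 6 to 14, 12 to 29 and 33 to 37 over the chase, 2 to 47, 30 to 50 and 15 to 33 between Ctrl libraries, and 0 to 1 in METTL3 for label loss. The share of all genes called moved too. In the response without replicate 1, the shares higher and lower were 20.7% and 22.4% for METTL3 minus YTHDC1. They were 21.5% and 20.6% for ZCCHC8 minus METTL3 and 14.2% and 15% for ZCCHC8 minus YTHDC1. Without replicate 2 these were 11.6% and 13.7%, 15.5% and 12.4%, and 6.66% and 4.73%. For METTL3 minus YTHDC1 in Ctrl libraries they were 7.48% and 7.53% without replicate 1, and 0.734% and 0.349% without replicate 2. The cause of these shifts was not tested. For the ratio at 0 min, leaving out a replicate leaves 1 sample per arm and no residual degrees of freedom, and was not run.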
